A study of Homo sapiens with 12 samples.

Results

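The Polycomb repressive complexes are the subject here: 35 genes that encode the subunits of Polycomb repressive complex 2 (PRC2), the subunits of Polycomb repressive complex 1 (PRC1) and the enzymes that remove their histone marks. The genes were listed by name for their place in these complexes, with earlier results of these data known. A probe was used if the array's annotation gave it the gene's symbol and it was detected, with a detection p under 0.05, on at least 3 of the 12 arrays. By that rule 31 of the 35 genes could be tested, with 44 of their 54 probes, among 11785 genes tested in all. EZH1 was detected on 2 arrays and was not tested, and RNF2, CBX8 and BAP1 were not analysed here because no named probe carried their symbols.

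The cells were HCT116, a human colorectal carcinoma line, and their total RNA was measured on 1-colour Illumina bead arrays. The WT group held the untreated parental cells. The Wip1SH group held cells depleted by a short hairpin RNA of Wip1, the phosphatase encoded by PPM1D that restrains p53 and the DNA damage response. The WT+ATMi and Wip1SH+ATMi groups held the same 2 kinds of cell after 3 days in 10 µM of an inhibitor of ATM, a kinase activated by DNA double-strand breaks, renewed every day. Each group had 3 arrays, described as biological replicates, so an adjusted p weighs a difference of groups against the spread between such cultures. The labels name neither a control hairpin nor a vehicle, nor whether the depleted cells were 1 clone, so a difference of Wip1SH from WT includes any other difference between the 2 kinds of cell.

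Polycomb proteins keep developmental genes silent. PRC2 methylates a lysine in the tail of histone H3. PRC1 attaches ubiquitin to histone H2A, and its canonical form is drawn to chromatin by a chromobox subunit that reads the methyl mark, whereas its variant forms are drawn by other subunits, some of which bind unmethylated CpG islands. In dividing cells the genes of the PRC2 core are known targets of the E2F factors that switch on genes of DNA replication, and Polycomb subunits are often raised in carcinomas.

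Depleted and treated cells gave brighter arrays than WT, and the part of brightness in the results was not tested except by the covariate described with the calls. In bulk RNA, a change in each cell and a change in the share of cells that express a gene cannot be told apart. The mean signal per array was 513.5 to 534.5 in WT, 541.6 to 652.8 in Wip1SH, 657.4 to 720.3 in WT+ATMi and 649.1 to 746.1 in Wip1SH+ATMi. The number of probes detected was 17650 to 17929 in WT, 18568 to 18961 in Wip1SH, 18723 to 19654 in WT+ATMi and 19505 to 20408 in Wip1SH+ATMi. After normalization, arrays correlated at 0.991 to 0.995 within a group and at 0.976 to 0.988 between groups. Of 10 epithelial markers, 7 were detected on all 12 arrays and VIL1 and LGALS4 on none, while of 16 fibroblast, leukocyte and endothelial markers only COL1A1 was detected on all 12. The hairpin had lowered its target, PPM1D, 3.17-fold in Wip1SH against WT (log2 fold change -1.66 ± 0.10, adjusted p = 2.57e-06).

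The Polycomb genes changed about as often as the other genes of these cells, and mostly by little. A gene counts as called when its Benjamini-Hochberg adjusted p from limma, taken over all 11785 genes, was under 0.05, and fold changes are on the log2 scale with their standard error. In Wip1SH against WT, 7 members were higher and 5 lower, 38.7% of those tested, beside 32.2% of all genes (16.8% higher and 15.4% lower). In WT+ATMi against WT, 8 were higher and 1 lower, 29.0% beside 25.5% (15.4% and 10%). The inhibitor in the depleted cells, Wip1SH+ATMi against Wip1SH, gave 8 higher and 2 lower, 32.3% beside 23.3% (14.3% and 9.02%). The hairpin in treated cells, Wip1SH+ATMi against WT+ATMi, gave 3 higher and 4 lower, 22.6% beside 21.2% (10.5% and 10.7%). With both the hairpin and the inhibitor, Wip1SH+ATMi against WT gave 11 higher and 2 lower, 41.9% beside 40.7% (23.5% and 17.1%). The median log2 fold changes of the members in these 5 comparisons, in that order, were 0.04, 0.08, 0.08, 0.01 and 0.05, beside 0.01, 0.03, 0.02, 0.01 and 0.04 over all genes. The groups did not overlap, every array of one lying above every array of the other, for 14, 14, 16, 15 and 18 members in the same order, against 44.9%, 41.6%, 40.8%, 39.6% and 49.5% of all genes. At least 1 of the first 4 comparisons called 20 members, where 55.5% of all genes were so called, and 11 members were called in none of these 4.

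**Figure D1:**
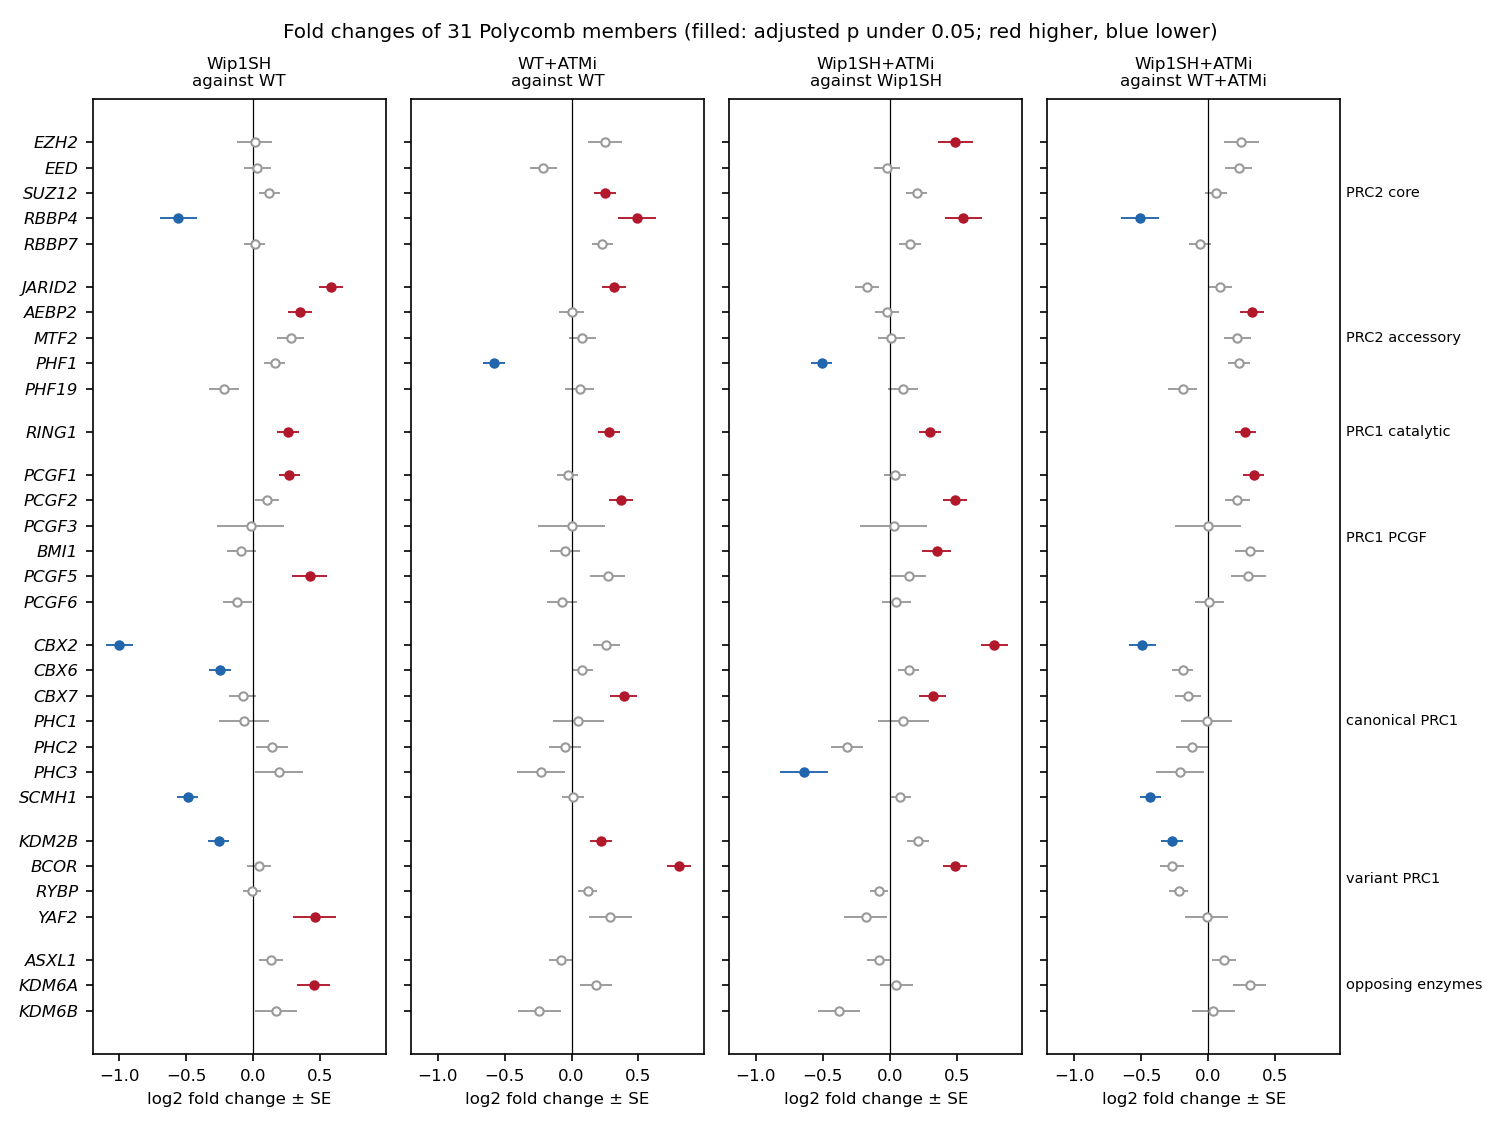
Log2 fold changes (horizontal axis, with standard errors) of the 31 tested Polycomb members, 1 line per gene grouped by role, in 4 comparisons of groups with 3 arrays each. Filled points passed an adjusted p of 0.05 (red higher, blue lower): CBX2 lies farthest to the left in Wip1SH against WT at -1.0, and BCOR farthest to the right in WT+ATMi against WT at 0.80.

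These calls depended on the scaling of the arrays. Where quantile normalization was replaced by equal array medians over all probes, the median log2 fold change of all genes became 0.24, 0.43, 0.15, -0.01 and 0.40 in the 5 comparisons, and members called higher and lower became 13 and 1, 25 and 0, 8 and 1, 0 and 3, and 20 and 0. That scaling lost 9 calls, on RBBP4, SCMH1, PHF1, AEBP2, RING1, PCGF1 and KDM2B, and turned the direction of 3. With equal medians over the tested probes only, they were 5 and 5, 5 and 2, 5 and 2, 2 and 4, and 11 and 4, and 10 calls were lost, 4 of them RING1 and the others PCGF5, YAF2, SUZ12, KDM2B, BMI1 and CBX7. When the number of detected probes per array, which moves with the groups, entered the model as a covariate, 46 of the 51 calls on members were lost. The 5 that remained were JARID2, CBX2 and SCMH1 in Wip1SH against WT, CBX2 in Wip1SH+ATMi against Wip1SH and SCMH1 in Wip1SH+ATMi against WT+ATMi.

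Among PRC2 core genes, SUZ12 and the tested probes of EZH2 and RBBP4 were higher after the inhibitor in at least 1 kind of cell. The tested probe of RBBP4 was lower after the hairpin. Of 5 tested, 1 was called lower in Wip1SH against WT, beside 15.4% of all genes. After the inhibitor 2 were called higher in WT (SUZ12 and RBBP4), beside 15.4%, and 2 in Wip1SH (EZH2 and RBBP4), beside 14.3%. EED, the subunit that binds the finished methyl mark, and RBBP7, a histone-binding subunit like RBBP4, were called in no comparison, with log2 intensities of 8.15 to 8.51 and 10.57 to 10.91 over all arrays.

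RBBP4 binds histone H4 and is shared with several other chromatin complexes. Its log2 intensity was 7.42, 7.77 and 7.91 on the WT arrays, 7.27, 7.07 and 7.08 on Wip1SH, 8.13, 8.15 and 8.31 on WT+ATMi, and 7.42, 7.92 and 7.71 on Wip1SH+ATMi. All 3 Wip1SH arrays lay below all others and all 3 WT+ATMi arrays above all others, and Wip1SH+ATMi overlapped WT. The log2 fold change was -0.56 ± 0.14 in Wip1SH against WT (adjusted p = 0.0112) and -0.51 ± 0.14 under the inhibitor (adjusted p = 0.0244). The inhibitor raised it by 0.49 ± 0.14 in WT (adjusted p = 0.0252) and by 0.55 ± 0.14 in Wip1SH (adjusted p = 0.0172). These values hold for 1 of 3 detected probes: another probe of RBBP4 was higher in Wip1SH than in WT, at 0.60 (adjusted p = 0.00754 in a fit over probes), and the remaining one was at 0.03. Those probes were at -0.43 (adjusted p = 0.044) and -0.31 in Wip1SH+ATMi against Wip1SH, and with the mean of the 3 probes the difference was 0.02 in Wip1SH against WT and -0.07 in Wip1SH+ATMi against Wip1SH, so that no direction is given for RBBP4 as a gene.

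EZH2 is the methyltransferase of the complex. It read 8.18, 8.10 and 7.88 on the WT arrays, 8.18, 7.90 and 8.12 on Wip1SH, 8.38, 8.03 and 8.50 on WT+ATMi, and 8.65, 8.44 and 8.57 on Wip1SH+ATMi. The Wip1SH+ATMi arrays lay above all WT and Wip1SH arrays, and the other 3 groups overlapped. The log2 fold change was 0.49 ± 0.13 in Wip1SH+ATMi against Wip1SH (adjusted p = 0.0181) and 0.50 ± 0.13 in Wip1SH+ATMi against WT (adjusted p = 0.00858), while Wip1SH against WT gave 0.01 ± 0.13 and WT+ATMi against WT 0.25 ± 0.13 (adjusted p = 0.177). The probes disagreed here too: 1 of the other 2 was lower in Wip1SH than in WT (-0.34, adjusted p = 0.0138) and in WT+ATMi against WT (-0.27, adjusted p = 0.0427). Both other probes were uncalled in Wip1SH+ATMi against Wip1SH, at 0.17 and 0.04. The mean of the probes gave 0.09 in Wip1SH+ATMi against WT (adjusted p = 0.298), so that no direction is given for EZH2 as a gene.

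SUZ12 is the scaffold on which the complex assembles. Its values were 11.54, 11.53 and 11.36 on the WT arrays, 11.62, 11.65 and 11.52 on Wip1SH, 11.67, 11.81 and 11.70 on WT+ATMi, and 11.73, 11.79 and 11.84 on Wip1SH+ATMi. Every array with the inhibitor lay above every array without it. The rise was 0.25 ± 0.08 in WT (adjusted p = 0.0365) and 0.31 ± 0.08 in Wip1SH+ATMi against WT (adjusted p = 0.00801), and Wip1SH+ATMi against Wip1SH missed the threshold at 0.20 ± 0.08 (adjusted p = 0.0984). Leaving out single arrays ended several calls on core genes. The SUZ12 call in WT+ATMi against WT was lost without WT replicate 2 or 3 or any 1 WT+ATMi array (adjusted p = 0.0515 to 0.125), and the RBBP4 call there without WT replicate 1 or WT+ATMi replicate 3 (0.0893 and 0.0899). EZH2 was lost in Wip1SH+ATMi against Wip1SH without Wip1SH replicate 2 or Wip1SH+ATMi replicate 1 or 3 (0.0506 to 0.0718), and RBBP4 without Wip1SH replicate 2 or 3 or Wip1SH+ATMi replicate 2 (0.0539 to 0.0683). Wip1SH+ATMi against WT+ATMi lost RBBP4 without WT+ATMi replicate 2 or 3 or Wip1SH+ATMi replicate 1 or 3 (0.053 to 0.0931).

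The accessory subunits decide where PRC2 binds, and they moved in different directions. JARID2 and AEBP2, which form one version of the complex, were called higher after the hairpin. JARID2 was so called without the inhibitor, and with it the difference was uncalled at 0.09 ± 0.09 (adjusted p = 0.514). The hairpin's effect on JARID2 was not shown to differ between cells with and without the inhibitor. PHF1, of the Polycomb-like proteins that form the other, was lower after the inhibitor. Of the 5 genes tested, 2 were called higher and 0 lower in Wip1SH against WT, beside 16.8% and 15.4% of all genes. In WT+ATMi against WT 1 was called higher and 1 lower, beside 15.4% and 10%. Wip1SH+ATMi against WT called 3 higher and 1 lower, beside 23.5% and 17.1%.

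JARID2 is a zinc-finger protein that recognises ubiquitinated H2A and brings PRC2 to sites marked by PRC1. It read 9.30, 9.27 and 9.31 on the WT arrays, 9.93, 9.85 and 9.86 on Wip1SH, 9.62, 9.71 and 9.52 on WT+ATMi, and 9.80, 9.81 and 9.52 on Wip1SH+ATMi. WT was the lowest group and Wip1SH the highest, neither overlapping any other, and the groups with the inhibitor lay between them and overlapped each other. JARID2 was higher in Wip1SH than in WT by 0.58 ± 0.09 (adjusted p = 0.000646), a call kept under every alternative and with every array left out, and by 0.77 with the count of detected probes as a covariate (adjusted p = 0.00728). The inhibitor raised it by 0.32 ± 0.09 in WT (adjusted p = 0.0201) and gave -0.17 ± 0.09 in Wip1SH (adjusted p = 0.196). The interaction, which is the inhibitor's effect in Wip1SH minus its effect in WT, was -0.49 ± 0.13 and missed the threshold (adjusted p = 0.0585).

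PHF1 is a Polycomb-like protein that binds CpG-rich DNA and methylated H3. The values were 9.33, 9.36 and 9.37 on the WT arrays, 9.51, 9.60 and 9.44 on Wip1SH, 8.80, 8.83 and 8.68 on WT+ATMi, and 9.13, 8.87 and 9.01 on Wip1SH+ATMi. The 4 groups occupied separate ranges, Wip1SH highest and WT+ATMi lowest. PHF1 fell by 0.58 on the log2 scale in WT+ATMi against WT (SE 0.08; adjusted p = 0.000689) and by 0.51 in Wip1SH+ATMi against Wip1SH (SE 0.08; adjusted p = 0.00154). Wip1SH+ATMi against WT gave -0.35 ± 0.08 (adjusted p = 0.00567), a value that became 0.11 with equal array medians over all probes, while WT+ATMi against WT became -0.10 (adjusted p = 0.539) and Wip1SH+ATMi against Wip1SH -0.35 (adjusted p = 0.0658). Its other 2 probes were at -0.59 and -0.49 in WT and at -0.30 and -0.42 in Wip1SH after the inhibitor, the same direction without passing the threshold. Wip1SH against WT left PHF1 uncalled at 0.16 ± 0.08 (adjusted p = 0.15).

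AEBP2, the zinc-finger partner of JARID2, followed the hairpin and not the inhibitor. It read 7.76, 7.46 and 7.55 on the WT arrays, 8.04, 7.92 and 7.85 on Wip1SH, 7.66, 7.52 and 7.60 on WT+ATMi, and 7.92, 7.83 and 8.02 on Wip1SH+ATMi. Every array with the hairpin lay above every array without it. The log2 fold change was 0.35 ± 0.09 in Wip1SH against WT (adjusted p = 0.0148) and 0.33 ± 0.09 in Wip1SH+ATMi against WT+ATMi (adjusted p = 0.0275), while the inhibitor gave 0.00 ± 0.09 in WT and -0.02 ± 0.09 in Wip1SH.

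MTF2, another Polycomb-like protein, read 8.89, 8.80 and 8.62 on the WT arrays, 9.12, 9.0 and 9.03 on Wip1SH, 8.86, 8.98 and 8.71 on WT+ATMi, and 9.04, 8.94 and 9.21 on Wip1SH+ATMi. The arrays with the hairpin lay above the WT arrays. It was called only in Wip1SH+ATMi against WT (0.29 ± 0.10, adjusted p = 0.0377), and Wip1SH against WT gave 0.28 ± 0.10 (adjusted p = 0.0555). PHF19, the last of the Polycomb-like proteins, was called in no comparison with its tested probe, at 7.36 to 7.99 over all arrays, although 1 of its other 2 probes was lower in Wip1SH than in WT (-0.58, adjusted p = 0.011). Single arrays again mattered. AEBP2 was lost in Wip1SH against WT without WT replicate 2 or Wip1SH replicate 1 (adjusted p = 0.0552 and 0.0592), and under the inhibitor without WT+ATMi replicate 2 or 3 or Wip1SH+ATMi replicate 1 or 3 (0.0653 to 0.0977). In Wip1SH+ATMi against WT it was lost without WT replicate 2 or Wip1SH+ATMi replicate 3 (0.0571 and 0.0574), and MTF2 without WT replicate 2 or 3 or Wip1SH+ATMi replicate 1 or 3 (0.0625 to 0.142). JARID2 was lost in WT+ATMi against WT without WT replicate 2 or WT+ATMi replicate 1 or 2 (0.0552 to 0.0685).

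The promoters of PRC2 genes were searched for the E2F consensus, in its 4 spellings TTTCCCGC, TTTGGCGC, TTTCGCGC and TTTGCCGC on both strands, since these factors are known to drive genes of the PRC2 core. Promoters were the 300 bases from 250 before to 50 after a start site in RefSeq (GRCh38.p14), 50 of them for 32 members. A match lay in 6 member promoters (12%), against 3.31% of 35116 promoters of all genes. The 6 belonged to PRC2 genes (6 of 11), 1 of them EZH1, which was not tested. None of the other 21 members had one, where 3.99% of 27305 genes had a match. No test was run on this description. The matches of EZH2 and MTF2 lay at the start of transcription and the others before it. The 5 matches in measured genes are given 5′ to 3′ on the strand of the gene, with the consensus or its reverse complement in capitals, at chr7:148884272-148884301 (minus strand) for EZH2, chr17:31936792-31936851 (plus) for SUZ12, chr12:19440423-19440482 (plus) for AEBP2, chr1:93079277-93079306 (plus) for MTF2 and chr9:120877307-120877366 (minus) for PHF19.
EZH2: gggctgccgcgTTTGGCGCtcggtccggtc
SUZ12: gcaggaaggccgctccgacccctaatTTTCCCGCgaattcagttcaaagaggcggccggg
AEBP2: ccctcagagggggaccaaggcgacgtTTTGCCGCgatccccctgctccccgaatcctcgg
MTF2: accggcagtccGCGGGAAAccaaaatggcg
PHF19: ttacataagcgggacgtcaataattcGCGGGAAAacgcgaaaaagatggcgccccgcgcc

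The values of these 5 genes are given by comparison. Wip1SH against WT called AEBP2 higher by 0.35 ± 0.09, with EZH2, SUZ12, MTF2 and PHF19 uncalled at 0.01, 0.12, 0.28 and -0.22. WT+ATMi against WT called SUZ12 at 0.25 ± 0.08, Wip1SH+ATMi against Wip1SH called EZH2 at 0.49 ± 0.13, and Wip1SH+ATMi against WT+ATMi called AEBP2 at 0.33 ± 0.09. With the hairpin and the inhibitor together against WT, the tested probe was called higher for 4 of the 5, beside 23.5% of all genes. These 4 were EZH2 at 0.50, SUZ12 at 0.31, AEBP2 at 0.33 and MTF2 at 0.29, and PHF19 was uncalled at -0.13. The other probes of EZH2 were uncalled there at -0.17 and -0.06, and no direction is given for EZH2 as a gene. The AEBP2 and MTF2 calls were lost without certain single arrays. None of the 4 calls was kept once the count of detected probes entered the model. Members without a match were also called higher there (JARID2, RING1, PCGF1, PCGF2, PCGF5, BCOR and KDM6A), and PHF1 and SCMH1 were called lower. A link of the matches to these changes was not tested.

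**Figure D2:**
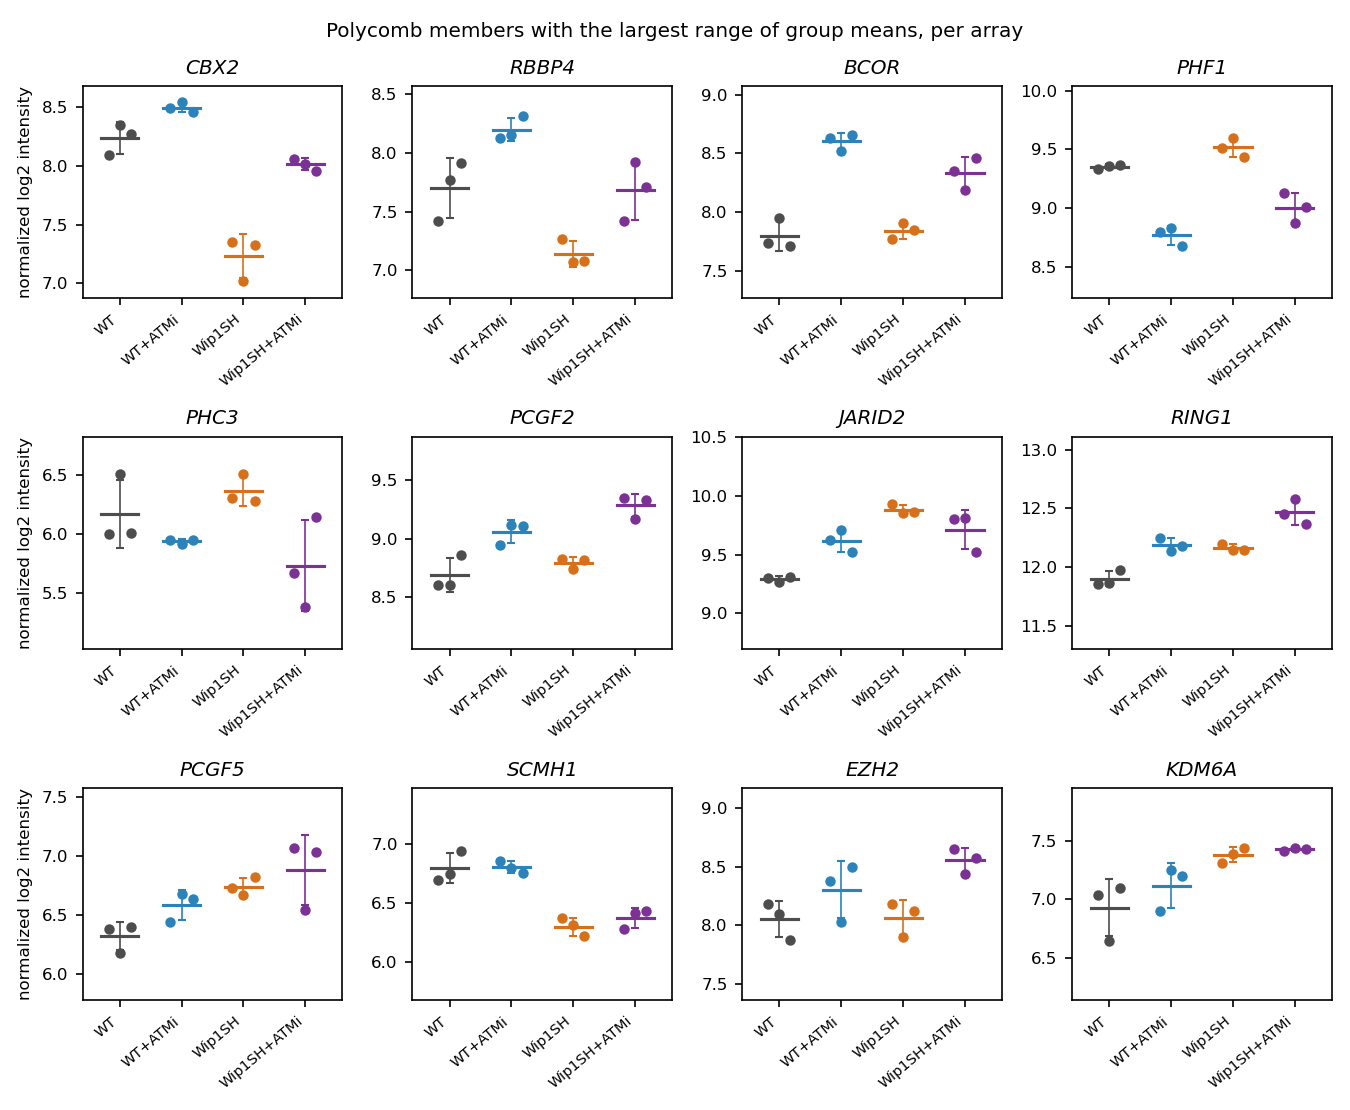
Normalized log2 intensity (vertical axis) of the 12 Polycomb members with the largest range of group means, 1 point per array, with the mean (bar) and SD (whiskers) of the 3 arrays of each group. The 4 groups of CBX2 and of PHF1 lie in separate ranges, and the panels span the same height but start at different levels, so levels are not to be set between genes.

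RING1, the ubiquitin ligase of PRC1 that was measured, was the one member called in the same direction in all 5 comparisons of groups. It read 11.86, 11.87 and 11.98 on the WT arrays, 12.20, 12.15 and 12.15 on Wip1SH, 12.25, 12.14 and 12.18 on WT+ATMi, and 12.45, 12.58 and 12.37 on Wip1SH+ATMi. WT lay lowest and Wip1SH+ATMi highest, with no overlap, and the hairpin and the inhibitor alone gave overlapping values between them. The hairpin raised RING1 by 0.26 ± 0.08 without the inhibitor (adjusted p = 0.0214) and by 0.28 ± 0.08 with it (adjusted p = 0.022). The inhibitor raised it by 0.28 ± 0.08 in WT (adjusted p = 0.0175) and by 0.30 ± 0.08 in Wip1SH (adjusted p = 0.0144), and both together by 0.56 ± 0.08 (adjusted p = 0.000161). The interaction was 0.02 ± 0.11 (adjusted p = 0.951). The combined call held with each array left out, but every single-effect call was lost without certain arrays. Wip1SH against WT was lost without WT replicate 1 or 2 or Wip1SH replicate 1 (adjusted p = 0.0604 to 0.0682), and WT+ATMi against WT without WT replicate 1 or 2 or WT+ATMi replicate 1 (0.052 to 0.0669). Wip1SH+ATMi against Wip1SH was lost without Wip1SH+ATMi replicate 2 (0.0511), and Wip1SH+ATMi against WT+ATMi without WT+ATMi replicate 2 or 3 or Wip1SH+ATMi replicate 2 (0.0639 to 0.0737).

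Each PRC1 holds 1 of 6 PCGF proteins, RING-finger partners of the ligase that set the type of complex. None of the 6 was called lower in any comparison, where 9.02% to 17.1% of all genes were called lower in the comparisons of groups. PCGF1 and PCGF5, of variant complexes, were higher after the hairpin, although PCGF5 was uncalled for the hairpin under the inhibitor. PCGF2, of canonical complexes, was higher after the inhibitor in both kinds of cell and BMI1, its relative, in the depleted cells. In Wip1SH against WT 2 of the 6 were called higher, beside 16.8% of all genes, and in WT+ATMi against WT 1, beside 15.4%. Wip1SH+ATMi against Wip1SH called 2 higher (beside 14.3%), Wip1SH+ATMi against WT+ATMi 1 (beside 10.5%) and Wip1SH+ATMi against WT 3 (beside 23.5%).

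PCGF2 read 8.61, 8.61 and 8.86 on the WT arrays, 8.83, 8.74 and 8.82 on Wip1SH, 8.95, 9.12 and 9.11 on WT+ATMi, and 9.35, 9.17 and 9.33 on Wip1SH+ATMi. All arrays with the inhibitor lay above all arrays without it. The rise was 0.37 ± 0.09 in WT (adjusted p = 0.0127), 0.49 ± 0.09 in Wip1SH (adjusted p = 0.00308) and 0.59 ± 0.09 for both together (adjusted p = 0.00041), and each of these calls held with each array left out. BMI1 read 10.29, 10.07 and 10.05 on the WT arrays, 9.97, 10.09 and 10.05 on Wip1SH, 10.08, 10.09 and 10.08 on WT+ATMi, and 10.27, 10.26 and 10.64 on Wip1SH+ATMi. Wip1SH+ATMi lay above Wip1SH and WT+ATMi but overlapped WT, and BMI1 was called only in Wip1SH+ATMi against Wip1SH (0.35 ± 0.11, adjusted p = 0.0328).

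PCGF1, the partner of BCOR and KDM2B, read 9.58, 9.62 and 9.63 on the WT arrays, 9.94, 9.89 and 9.82 on Wip1SH, 9.64, 9.56 and 9.54 on WT+ATMi, and 9.77, 10.04 and 9.95 on Wip1SH+ATMi. Every array with the hairpin lay above every array without it. It was higher by 0.27 ± 0.08 in Wip1SH against WT (adjusted p = 0.0231) and by 0.34 ± 0.08 in Wip1SH+ATMi against WT+ATMi (adjusted p = 0.0115), and the inhibitor gave -0.03 ± 0.08 and 0.04 ± 0.08. PCGF5, of a further variant complex, read 6.38, 6.18 and 6.40 on the WT arrays, 6.73, 6.67 and 6.82 on Wip1SH, 6.44, 6.68 and 6.64 on WT+ATMi, and 7.07, 6.54 and 7.04 on Wip1SH+ATMi. WT lay below all other arrays, and the other 3 groups overlapped. The hairpin raised PCGF5 by 0.42 ± 0.13 (adjusted p = 0.0319) and both together by 0.56 ± 0.13 (adjusted p = 0.0057). Under the inhibitor the hairpin's difference of 0.30 ± 0.13 was uncalled (adjusted p = 0.139). The inhibitor gave 0.27 ± 0.13 in WT (adjusted p = 0.165) and 0.14 ± 0.13 in Wip1SH (adjusted p = 0.487), both uncalled. PCGF3 and PCGF6 were called in no comparison, at 5.13 to 6.07 and 10.19 to 10.57 over all arrays, and PCGF3 had the largest standard error of the members at 0.25. In Wip1SH against WT the PCGF1 call was lost without WT replicate 1 or Wip1SH replicate 1 or 2 (adjusted p = 0.0566 to 0.0785), and the PCGF5 call without WT replicate 1 or 2 or any 1 Wip1SH array (0.0503 to 0.1). The BMI1 call was lost without any 1 Wip1SH array or Wip1SH+ATMi replicate 3 (0.0598 to 0.107).

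The canonical subunits of PRC1 held the largest change of any member. CBX2, a chromobox protein that reads methylated H3 and compacts chromatin, fell 2.01-fold in Wip1SH against WT and was higher again with the inhibitor. SCMH1 and CBX6 were also lower in Wip1SH than in WT, and CBX7 was higher after the inhibitor. Of 7 tested, 3 were called lower and 0 higher in Wip1SH against WT, beside 15.4% and 16.8% of all genes. In WT+ATMi against WT 1 was called higher, beside 15.4%. Wip1SH+ATMi against Wip1SH called 2 higher and 1 lower, beside 14.3% and 9.02%, and Wip1SH+ATMi against WT+ATMi called 2 lower, beside 10.7%.

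CBX2 read 8.09, 8.35 and 8.27 on the WT arrays, 7.35, 7.02 and 7.33 on Wip1SH, 8.49, 8.54 and 8.46 on WT+ATMi, and 8.06, 8.02 and 7.96 on Wip1SH+ATMi. The 4 groups did not overlap, in the order WT+ATMi, WT, Wip1SH+ATMi and Wip1SH from highest to lowest. The fall in Wip1SH against WT was -1.0 ± 0.10 on the log2 scale (adjusted p = 4.74e-05), which ranked 52 from the lowest of 11785 genes, and under the inhibitor the difference was -0.49 ± 0.10 (adjusted p = 0.00508). The inhibitor raised CBX2 by 0.78 ± 0.10 in Wip1SH (adjusted p = 0.000393), and in WT the difference of 0.26 ± 0.10 missed the threshold (adjusted p = 0.0715). The interaction was 0.52 ± 0.14 and also missed it (adjusted p = 0.0701), so the inhibitor's effect was not shown to differ between the 2 kinds of cell. In Wip1SH+ATMi against WT, CBX2 was uncalled at -0.22 ± 0.10 (adjusted p = 0.092). The fall with the hairpin and the rise with the inhibitor in Wip1SH were kept under every alternative and with each array left out, at -0.86 (adjusted p = 0.0104) and 0.95 (adjusted p = 0.0286) with the count of detected probes as a covariate. The 2 other probes of CBX2 were detected on no array.

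SCMH1, a protein that joins the Polyhomeotic subunits of PRC1, read 6.70, 6.75 and 6.94 on the WT arrays, 6.37, 6.31 and 6.22 on Wip1SH, 6.86, 6.80 and 6.76 on WT+ATMi, and 6.28, 6.42 and 6.43 on Wip1SH+ATMi. Every array with the hairpin lay below every array without it. The log2 fold change was -0.49 ± 0.08 in Wip1SH against WT (adjusted p = 0.00131) and -0.43 ± 0.08 in Wip1SH+ATMi against WT+ATMi (adjusted p = 0.004), while the inhibitor gave 0.01 ± 0.08 in WT and 0.08 ± 0.08 in Wip1SH. The SCMH1 calls held with each array left out, and with equal array medians over all probes Wip1SH against WT missed the threshold at -0.24 (adjusted p = 0.159).

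CBX7, a chromobox protein of canonical PRC1, read 7.87, 7.71 and 7.84 on the WT arrays, 7.85, 7.76 and 7.59 on Wip1SH, 8.26, 8.02 and 8.31 on WT+ATMi, and 8.03, 7.99 and 8.13 on Wip1SH+ATMi. All arrays with the inhibitor lay above all arrays without it. The rise was 0.39 ± 0.10 in WT (adjusted p = 0.0142) and 0.32 ± 0.10 in Wip1SH (adjusted p = 0.0371). CBX6, the other chromobox protein measured, read 10.39, 10.48 and 10.29 on the WT arrays, 10.16, 10.13 and 10.11 on Wip1SH, 10.42, 10.50 and 10.49 on WT+ATMi, and 10.18, 10.29 and 10.36 on Wip1SH+ATMi. The Wip1SH arrays lay below all others. Its only call was -0.25 ± 0.08 in Wip1SH against WT (adjusted p = 0.0234), which became 0.03 with equal array medians over all probes.

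The Polyhomeotic proteins PHC1, PHC2 and PHC3 polymerise and cluster PRC1. PHC3 read 6.0, 6.51 and 6.01 on the WT arrays, 6.31, 6.51 and 6.28 on Wip1SH, 5.95, 5.92 and 5.95 on WT+ATMi, and 5.67, 5.38 and 6.15 on Wip1SH+ATMi. The Wip1SH+ATMi arrays lay below the Wip1SH arrays, and Wip1SH overlapped WT. This probe was dim, and it was not detected on Wip1SH+ATMi replicate 2, its lowest array at 5.38. PHC3 was lower in Wip1SH+ATMi than in Wip1SH by 0.64 (log2 fold change -0.64 ± 0.18, adjusted p = 0.0252), and its other probe was at -0.15. PHC1 and PHC2 were called in no comparison, at 6.0 to 6.99 and 8.52 to 9.27. Calls lost with 1 array left out were CBX6 in Wip1SH against WT (without WT replicate 1 or 2 or Wip1SH replicate 2 or 3, adjusted p = 0.0537 to 0.084) and CBX7 in WT+ATMi against WT (without WT+ATMi replicate 1 or 3, 0.0534 and 0.0602). In the depleted cells, after the inhibitor, they were CBX7 (without Wip1SH replicate 2 or 3 or any 1 Wip1SH+ATMi array, 0.0575 to 0.131) and PHC3 (without Wip1SH replicate 1 or 2 or Wip1SH+ATMi replicate 1 or 2, 0.0526 to 0.0961).

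In the variant PRC1, BCOR rose with the inhibitor in both kinds of cell. BCOR is a corepressor in the complex of PCGF1 and KDM2B. It read 7.74, 7.95 and 7.71 on the WT arrays, 7.77, 7.91 and 7.85 on Wip1SH, 8.63, 8.52 and 8.66 on WT+ATMi, and 8.35, 8.19 and 8.46 on Wip1SH+ATMi. All arrays with the inhibitor lay above all arrays without it, and the arrays without it overlapped. The rise was 1.74-fold in WT (log2 fold change 0.80 ± 0.09, adjusted p = 0.000244), ranking 193 from the highest of 11785 genes, and 0.49 ± 0.09 in Wip1SH (adjusted p = 0.00366). The interaction of -0.31 ± 0.13 missed the threshold (adjusted p = 0.234). These BCOR calls held with each array left out, and the hairpin alone gave 0.04 ± 0.09.

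KDM2B, a demethylase whose zinc finger binds unmethylated CpG and brings the complex to CpG islands, read 10.14, 10.30 and 10.25 on the WT arrays, 10.05, 9.90 and 9.95 on Wip1SH, 10.51, 10.36 and 10.48 on WT+ATMi, and 10.19, 10.14 and 10.20 on Wip1SH+ATMi. Wip1SH lay lowest and WT+ATMi highest with no overlap, and Wip1SH+ATMi overlapped WT. KDM2B was lower with the hairpin by 0.26 in untreated cells (log2 fold change -0.26 ± 0.08, adjusted p = 0.0211) and by 0.27 under the inhibitor (-0.27 ± 0.08, adjusted p = 0.0247), and the first value became 0.03 with equal array medians over all probes. The inhibitor gave 0.22 ± 0.08 in WT, at the threshold (adjusted p = 0.0497), and 0.21 ± 0.08 in Wip1SH (adjusted p = 0.062).

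YAF2, which with RYBP takes the place of a chromobox protein in variant complexes, read 5.83, 5.39 and 5.53 on the WT arrays, 6.12, 5.65 and 6.38 on Wip1SH, 5.83, 5.89 and 5.91 on WT+ATMi, and 5.91, 5.86 and 5.83 on Wip1SH+ATMi. WT and Wip1SH overlapped, although Wip1SH against WT was called at 0.46 ± 0.16 (adjusted p = 0.0433). That probe was dim, detected on 1 of the 3 WT arrays. RYBP was called in no comparison, at 9.09 to 9.43, and was nearest to the threshold in Wip1SH+ATMi against WT+ATMi (-0.22 ± 0.07, adjusted p = 0.0504). The YAF2 call was lost without any 1 array except WT replicate 1 and Wip1SH replicate 2 (adjusted p = 0.0554 to 0.163), and the KDM2B call in WT+ATMi against WT without any 1 array except WT+ATMi replicate 2 (0.0532 to 0.151). KDM2B was also lost in Wip1SH against WT without WT replicate 2 or 3 or Wip1SH replicate 2 or 3 (0.0567 to 0.0728), and in Wip1SH+ATMi against WT+ATMi without any 1 array of these groups except WT+ATMi replicate 2 (0.0515 to 0.0838).

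Of the enzymes that take the Polycomb marks away, KDM6A, which removes methyl groups from H3, was higher after the hairpin. It read 7.04, 6.65 and 7.10 on the WT arrays, 7.31, 7.39 and 7.44 on Wip1SH, 6.90, 7.25 and 7.20 on WT+ATMi, and 7.41, 7.44 and 7.43 on Wip1SH+ATMi. Every array with the hairpin lay above every array without it. The log2 fold change was 0.45 ± 0.12 in Wip1SH against WT (adjusted p = 0.0163) and 0.50 ± 0.12 in Wip1SH+ATMi against WT (adjusted p = 0.00716), and under the inhibitor it was 0.31 ± 0.12 (adjusted p = 0.0935). The first call was lost without WT replicate 2 or Wip1SH replicate 3 (adjusted p = 0.0526 and 0.0524). KDM6B, a demethylase of the same family, and ASXL1, the partner of the H2A deubiquitinase, were called in no comparison, at 5.93 to 6.85 and 7.96 to 8.38 over all arrays.

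The effect of the hairpin could be measured on separate arrays, once without and once with the inhibitor. All 7 members called with the inhibitor (RBBP4, AEBP2, RING1, PCGF1, CBX2, SCMH1 and KDM2B) were also called without it and in the same direction, which is 100% of the 7 and 58.3% of the 12. Over all genes, 1607 were called in both, 64.4% and 42.4% of the 2 lists, and 1510 of these went the same way. For the inhibitor, 6 members (RBBP4, PHF1, RING1, PCGF2, CBX7 and BCOR) were called in both kinds of cell, all in the same direction, which is 66.7% of the 9 called in WT and 60.0% of the 10 called in Wip1SH. Over all genes 1401 were shared, 46.7% and 50.9%, of which 1307 went the same way. Signs matched for 23 of 31 members in the hairpin comparisons (74.2%, beside 68.7% of all genes) and for 24 of 31 in the inhibitor comparisons (77.4%, beside 67.7%).

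**Figure D3:**
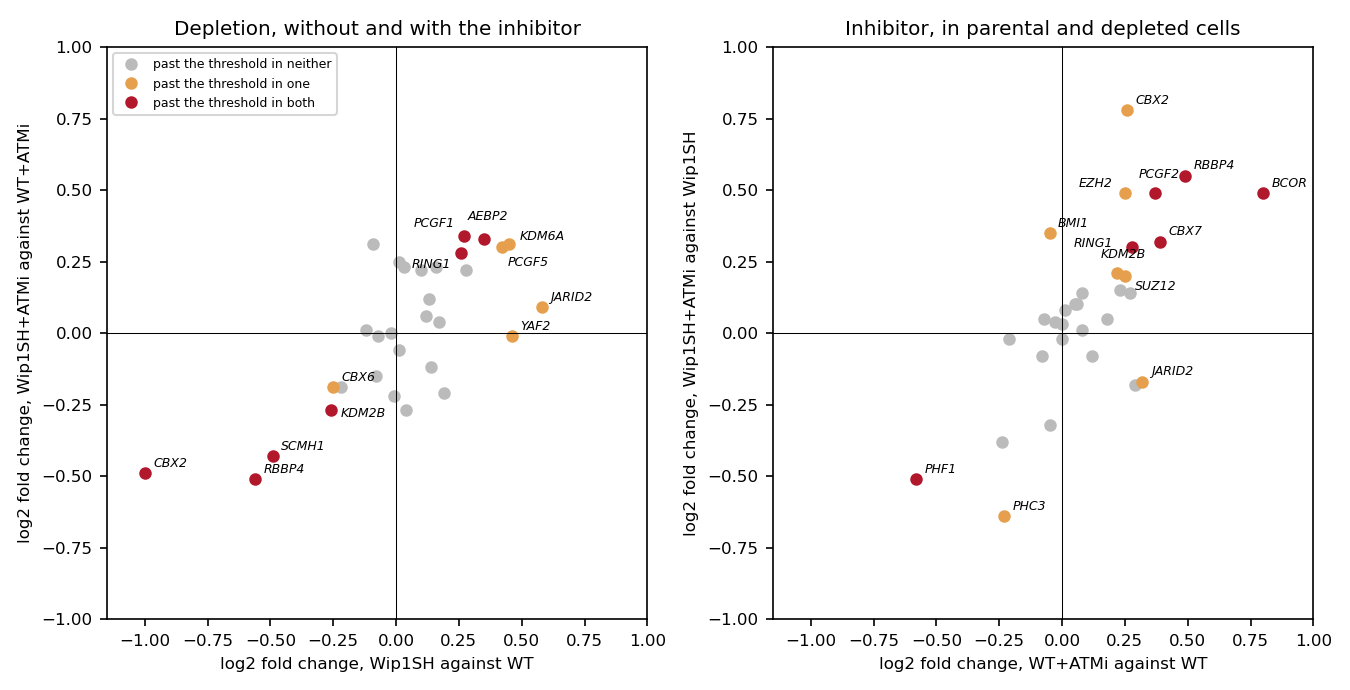
Log2 fold change of each of the 31 members measured on separate arrays. The left panel sets the hairpin without the inhibitor (horizontal) against the hairpin with it (vertical), and the right panel sets the inhibitor in WT (horizontal) against the inhibitor in Wip1SH (vertical). Red points passed the threshold in both comparisons of a panel, 7 on the left and 6 on the right, and orange points in one of them.

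No member passed the test of the interaction with limma, in which 3.11% of all genes were called (367 genes, 1.9% positive and 1.21% negative). At an unadjusted p under 0.05 there were 4 members (12.9%), beside 18.6% of all genes. The members farthest from 0 were CBX2 at 0.52 ± 0.14 and JARID2 at -0.49 ± 0.13, whose per-array values are given above. All WT+ATMi arrays of JARID2 lay above WT, and all Wip1SH+ATMi arrays lay below Wip1SH, the latter difference uncalled. JARID2 passed the threshold under 5 of 12 alternatives for the interaction (adjusted p = 0.0242 to 0.0417), and CBX2 under 1 of them, the stricter detection filter (adjusted p = 0.0475). No member passed with any single array left out.

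Several genes had more than 1 detected probe, and the probes of a gene did not always give the same answer. There were 8 such members with 21 probes, and the brightest probe of each was the one tested. EZH2, RBBP4 and PHF19 each had another probe with an adjusted p under 0.05 in Wip1SH against WT where the tested probe gave a different answer, as given above with each gene. The probes of PHF1 all moved down with the inhibitor. The probes of PCGF6 stayed between -0.12 and 0.11 in the 4 comparisons, and those of PHC2 between -0.32 and 0.14. The other probe of KDM2B, detected on 7 arrays, was at -0.32 in Wip1SH against WT and at -0.20 in WT+ATMi against WT, neither called. With the mean of its probes KDM2B lost all its calls, at -0.29 in Wip1SH against WT (adjusted p = 0.129), 0.01 in WT+ATMi against WT (0.969) and -0.12 in Wip1SH+ATMi against WT+ATMi (0.598). The only call on PHC3, -0.64 in Wip1SH+ATMi against Wip1SH, stood beside an uncalled -0.15 of its other probe.

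**Figure D4:**
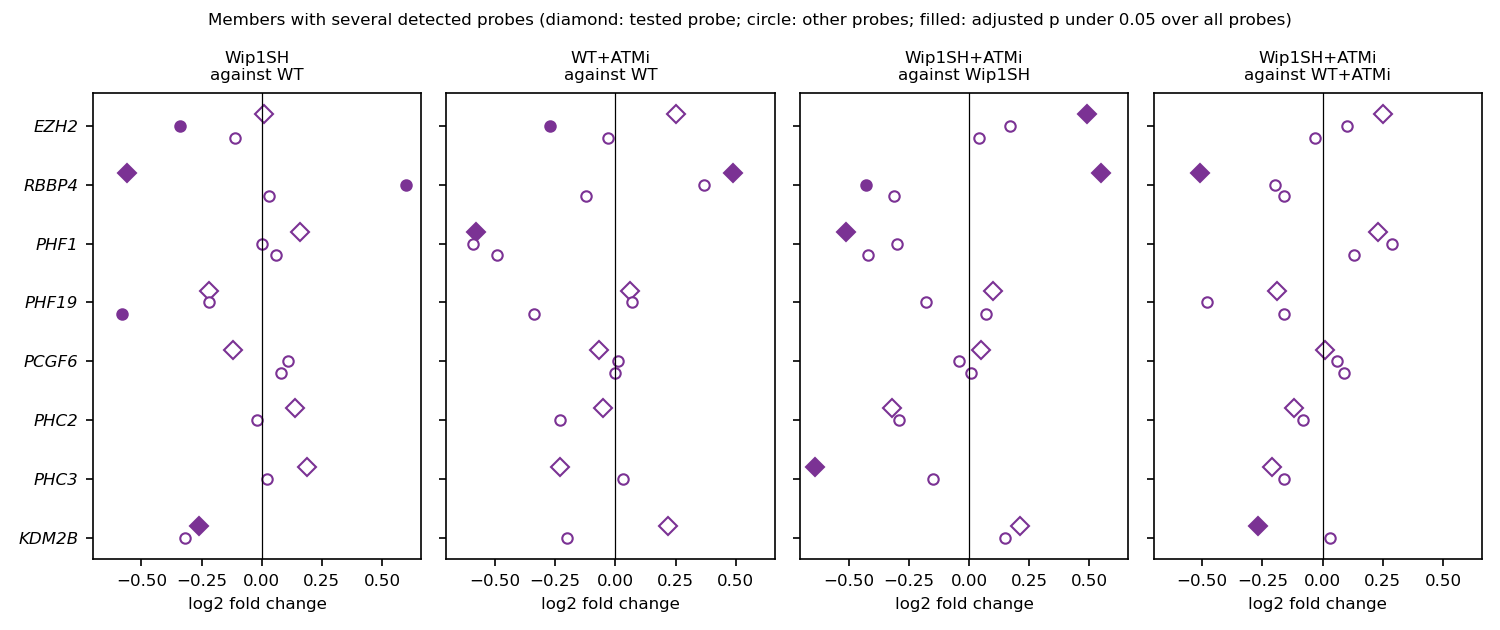
Log2 fold change (horizontal axis) of each detected probe of the 8 members with several probes, in 4 comparisons. Diamonds are the tested probes and circles the other probes, filled where the adjusted p in a fit over all probes was under 0.05. The probes of RBBP4 lie on both sides of 0 in Wip1SH against WT, from -0.56 to 0.60, while those of PHF1 lie together at -0.59 to -0.49 in WT+ATMi against WT.

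Of 38 other genes whose proteins bind to or work beside the complexes, 34 were tested. In Wip1SH against WT 4 were higher and 6 lower, with a median of 0.12, which is 29.4% called beside 38.7% of the members and 32.2% of all genes. After the inhibitor 6 were higher and 2 lower in WT (23.5%, beside 29.0% and 25.5%), and 6 higher and 1 lower in Wip1SH (20.6%, beside 32.3% and 23.3%). In Wip1SH+ATMi against WT+ATMi 5 were higher and 3 lower (23.5%, beside 22.6% and 21.2%). In Wip1SH+ATMi against WT 11 were higher and 3 lower (41.2%, beside 41.9% and 40.7%). WDR5, which belongs to histone-methylating complexes and to a variant PRC1, was lower in Wip1SH against WT (-0.59 ± 0.09, adjusted p = 0.000683) and in Wip1SH+ATMi against WT+ATMi (-0.94 ± 0.09, adjusted p = 5.04e-05). It was also lower in Wip1SH+ATMi against Wip1SH (-0.56 ± 0.09, adjusted p = 0.00155) and in Wip1SH+ATMi against WT (-1.16 ± 0.09, adjusted p = 5.66e-06). CBX3, a heterochromatin chromobox protein also found in a variant PRC1, was lower in Wip1SH than in WT (-0.63 ± 0.07, adjusted p = 0.000138). EPOP, a PRC2 partner, was lower in Wip1SH against WT (-0.48 ± 0.08, adjusted p = 0.000924) and higher in Wip1SH+ATMi against Wip1SH (0.44 ± 0.08, adjusted p = 0.0024). BCORL1, the relative of BCOR, was higher in WT+ATMi than in WT (0.79 ± 0.14, adjusted p = 0.00232), as was MGA, a DNA-binding partner of PCGF6 (0.66 ± 0.14, adjusted p = 0.00583). MBTD1 was lower in that comparison (-0.80 ± 0.14, adjusted p = 0.00253) and was the only one of the list called in the interaction (1.15 ± 0.20, adjusted p = 0.0135).

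The HOX genes, the best known targets of Polycomb silencing, were mostly not detected. Of 39 genes 14 were tested. In Wip1SH against WT 1 was higher and 1 lower, 14.3% called beside 32.2% of all genes. In WT+ATMi against WT 3 were higher and 1 lower, 28.6% beside 25.5%. The counts were 1 and 1 in Wip1SH+ATMi against Wip1SH (14.3% beside 23.3%), and 1 and 2 in Wip1SH+ATMi against WT+ATMi (21.4% beside 21.2%). HOXD8 was higher with the hairpin without the inhibitor (0.44 ± 0.15, adjusted p = 0.0395) and with it (0.74 ± 0.15, adjusted p = 0.00463), and HOXB8 was lower (-0.29 ± 0.09, adjusted p = 0.0236, and -0.36 ± 0.09, adjusted p = 0.0123). HOXC9 was higher with the inhibitor in WT (0.50 ± 0.10, adjusted p = 0.00513) and in Wip1SH (0.40 ± 0.10, adjusted p = 0.0169). HOXB4 was lower in Wip1SH+ATMi than in Wip1SH (-0.60 ± 0.12, adjusted p = 0.00501) and than in WT+ATMi (-0.65 ± 0.12, adjusted p = 0.00289).

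Proliferation genes were mostly lower with the hairpin, and their part in the members' changes was not tested. Of 16 tested, 13 were lower in Wip1SH against WT with a median of -0.60, beside 15.4% of all genes called lower. In Wip1SH+ATMi against WT+ATMi 11 were lower with a median of -0.38, beside 10.7% of all genes. In Wip1SH+ATMi against WT 9 were lower with a median of -0.35, beside 17.1%. In Wip1SH+ATMi against Wip1SH 7 were higher, with a median of 0.19, beside 14.3% of all genes called higher. In WT+ATMi against WT 1 was higher, MKI67 at 0.68 ± 0.17 (adjusted p = 0.0134), with a median of 0.04 over the list, beside 15.4% of all genes. MCM5, a subunit of the replicative helicase, was lower in Wip1SH than in WT (-1.05 ± 0.09, adjusted p = 1.97e-05) and higher in Wip1SH+ATMi than in Wip1SH (0.57 ± 0.09, adjusted p = 0.00128). In the interaction MCM5 (0.64 ± 0.13, adjusted p = 0.0224) and MCM7 (0.42 ± 0.09, adjusted p = 0.0301) were called.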

How the data were processed

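Total RNA from 12 cultures was made into biotin-labelled cRNA and hybridised to Illumina bead arrays. The authors deposited 1 linear intensity per probe and array, without normalization between arrays as far as the headers and values show. The deposited detection p-value of each probe stands beside its signal, per the file headers. The authors also deposited log2 values, which differed by at most 5e-06 from the normalized values computed here and are therefore no independent check; no source used here names their software.

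Signals were normalized with neqc of limma 3.58.1 in R 4.3.3 (normal-exponential correction from the detection p-values, offset 16, quantile normalization, log2). Of 47323 probes, 30113 had 1 gene symbol in the platform's annotation, 8 had several and 17202 were unnamed here. Detection p under 0.05 on 3 of 12 arrays kept 15772 named probes, and the probe with the highest mean stood for each of 11785 genes (3150 had several). All 12 arrays were fitted with 1 mean per group (lmFit, eBayes), and 5 differences and the interaction were given two-sided tests, adjusted by Benjamini-Hochberg across all genes tested. The number of arrays limits the precision, with standard errors of 0.07 to 0.25 (median 0.10) for the members' group differences. The procedure was tested on simulated data.

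The 35 members, the lists and the tests were chosen with earlier results of these data known. All measured members are given values, those called in any comparison per array. The other lists are given by counts, with some, not all, of the up to 3 genes of smallest adjusted p per comparison. Promoters came from RefSeq (GRCh38.p14). Alternatives were other background corrections, scalings, filters, probe rules and models, and each array left out in turn. Copy number, protein levels and histone marks were not measured.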

Additional observations from a re-analysis of the deposited data

Results flagged for a closer look

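For JARID2, all 3 WT+ATMi arrays lay above all WT arrays (log2 fold change 0.32, adjusted p = 0.0201), and all 3 Wip1SH+ATMi arrays lay below all Wip1SH arrays, a difference that was not called (-0.17, adjusted p = 0.196). The difference of the 2 effects was -0.49 on the log2 scale, with an adjusted p of 0.0585 in limma's test of the interaction, which misses the threshold.

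Probes that were not tested gave signal on a few arrays. The second probe of BCOR was detected on 2 arrays, both of Wip1SH+ATMi, and on none of the other groups. The probe of EZH1, the second methyltransferase of PRC2, was detected on 2 arrays, 1 of WT+ATMi and 1 of Wip1SH+ATMi, and on none without the inhibitor. Arrays with the inhibitor had 18723 to 20408 detected probes and arrays without it 17650 to 18961, and the part of this difference was not tested. Groups of 3 arrays were not searched for single arrays standing apart.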

How the results depend on the processing

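In the order Wip1SH against WT, WT+ATMi against WT, Wip1SH+ATMi against Wip1SH, Wip1SH+ATMi against WT+ATMi, Wip1SH+ATMi against WT and the interaction, the counts were 12, 9, 10, 7, 13 and 0. They were 3, 0, 1, 1, 0 and 1 with the count of detected probes as a covariate, and 14, 25, 9, 3, 20 and 1 with equal array medians over all probes. The stricter filter gave 11 and array weights gave 13 in Wip1SH+ATMi against WT+ATMi. In the interaction the stricter filter gave 2, and an offset of 50 and no background correction gave 1 each. With single arrays left out the counts ran from 5 to 11, 4 to 9, 5 to 10, 3 to 9 and 11 to 15, and stayed at 0 in the interaction. The lowest counts came without WT replicate 2 (5), WT+ATMi replicate 1 (4), Wip1SH replicate 2 (5) and WT+ATMi replicate 3 (3) in the first 4 comparisons.

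Over all genes the covariate left 886, 33, 159, 1183, 40 and 231 calls, equal medians over all probes gave 4168, 7206, 2381, 1289, 6747 and 267, and the interaction gave 572 without background correction.

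Directions turned for RBBP4 with the mean of its probes, to 0.02 in Wip1SH against WT and -0.07 in Wip1SH+ATMi against Wip1SH. With equal medians over all probes they turned for CBX6 and KDM2B in Wip1SH against WT, both to 0.03, and for PHF1 in Wip1SH+ATMi against WT, to 0.11. The cause was not tested.

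Of 51 calls on members, 25 were kept with every array left out and 4 also under every alternative. The deposited log2 values gave the same calls by construction, being the values used to within 5e-06. A fit of only the groups compared lost 10 of the 51, no detection filter 4, and the mean of probes 7, including the 2 on RBBP4 that turned. With the replicate number as a block the counts were 12, 8, 10, 7, 12 and 0, but same-numbered arrays correlated at only -0.0819 to 0.141 in their deviations, so the numbers were not taken as pairs. The slide as a block was not run, since the file headers give no slide.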
